A study of Penicillium oxalicum with 6 samples.

Results

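A set of 259 genes of Penicillium oxalicum stood at a medium transcript level after silencing of POc04478, at least 4-fold above the level of the parental strain. The set was chosen from the deposited FPKM values, that is, sequenced fragments scaled to transcript length and library size. A gene belonged to it when its mean over the silenced libraries was at least 50 and below 500 FPKM, its parental mean was at least 1 FPKM and the ratio of the silenced to the parental mean was at least 4. Every silenced value also had to lie above every parental value. Genes from POX_c04227 to POX_c04261 and from POX_c04502 to POX_c04536 on chromosome III were left out by the rule. The 259 members are 2.64% of the 9822 locus tags listed, and 9.01% of the 2875 locus tags whose silenced mean lay in this range. The values that chose the members are described here without a test, since the choice fixed their direction.

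Penicillium oxalicum is a filamentous fungus that secretes enzymes which break down plant polysaccharides, among them cellulases and starch-degrading enzymes. When such a fungus is moved from glucose to an insoluble polysaccharide, it commonly changes the transcription of many genes, those for secreted enzymes, sugar uptake and growth among them. Copper is an essential trace metal for fungi and a cofactor of several oxidases, and fungal promoters that respond to it are used to switch genes on or off. The files and the gene table pair the locus tags with no product name, so no role is assigned to any member.

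Messenger RNA was sequenced from mycelium, the thread-like body of the fungus, in 6 libraries, 3 per group. For the parental group this was a strain without PoxKu70, although its genotype label reads WT; Ku70 proteins take part in the joining of broken DNA ends, and fungi without them take up targeted gene changes more readily. For the silenced group it was the PoxKu70-lacking strain, per the series title, with POc04478 silenced, to which 5 μM copper ions were added. Whether copper was also given to the parental cultures is not stated in the labels, so copper and silencing cannot be told apart. In both groups 24 h in glucose medium preceded 24 h in an enzyme-producing medium, whose carbon source is given as Avicel, a microcrystalline cellulose, in the protocol and as raw starch in the treatment label. Separate cultures are not stated for the replicates, and p-values therefore reflect only how far these libraries spread, which may be technical.

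The target itself, matched by number and chromosome letter to POX_c04478, had 159, 116 and 131 FPKM in parental replicates 1, 2 and 3. Silenced replicates 1, 2 and 3 had 15.9, 17.8 and 19.03 FPKM. The silenced mean was 13.0% of the parental mean. The number of fragments per library is not given. Steps among low FPKM values gave relative depths of 1 to 1.58, with parental replicate 1 set to 1, and silenced replicates 1, 2 and 3 at 1.05, 1.58 and 1.34. These are rough estimates, as only 455 of 5378 ratios lay within the set tolerance. Parental libraries correlated with each other at a Pearson r of 0.939 to 0.975 and silenced libraries at 0.977 to 0.986, on log2(FPKM + 1) over 9341 IDs.

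The members moved from low and moderate parental levels to a silenced level of around 150 FPKM. The median member stood at 20.4, 31.2 and 23.1 FPKM in parental replicates 1, 2 and 3, and in silenced replicates 1, 2 and 3 at 161, 148 and 135 FPKM. The other 2616 locus tags with a silenced mean in the same range had medians of 94.0 to 99.5 FPKM in the parental libraries and 103 to 112 FPKM in the silenced libraries. Summed over all members, the values took 0.61% ± 0.14 of the total FPKM in the parental libraries against 3.68% ± 0.35 in the silenced libraries (SD, n = 3 each). In every silenced library the members' share was above that of every parental library. The rule requires this of the summed values, while the share also depends on each library's total. In bulk mycelium, more transcript per cell and more cells making the transcript cannot be told apart.

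**Figure D1:**
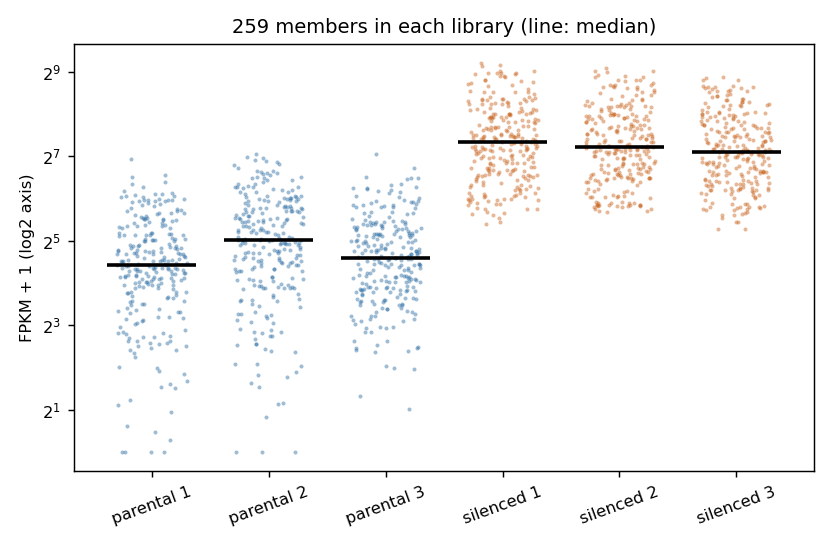
FPKM + 1 on a log2 axis for each of the 259 members (points) in the 3 parental (blue) and 3 silenced (orange) libraries, with the median as a black line. The medians were 20.4 to 31.2 FPKM in the parental libraries and 135 to 161 FPKM in the silenced libraries, and silenced replicate 3 had the lowest median of its group.

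The size of the rise was modest for most members and very large for a few. The ratio of means had a median of 5.29, with quartiles at 4.56 and 6.73, and reached 136. In 106 members it lay between 4 and 5, in 99 between 5 and 8, in 28 between 8 and 16, and in 26 at 16 or more. By level, 73 members had a silenced mean under 100 FPKM, 98 had 100 to 200 FPKM and 88 had at least 200 FPKM. The parental mean was under 10 FPKM in 38 members, 10 to 50 FPKM in 174 and at least 50 FPKM in 47. Larger ratios went with lower parental levels, as the cap on the silenced mean requires in part: the median parental mean was 31.0 FPKM for ratios of 4 to 5 and 5.34 FPKM for ratios of 16 or more, while the median silenced means of these classes were both 141 FPKM.

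The rule required separated groups, and the distance between them varied. The lowest silenced value was at least 2 times the highest parental value in 257 members and at least 4 times in 86, with a median of 3.60 times. The 2 members with closer groups were POX_e06701 and POX_g09015. Silenced values lay above all parental values in 29.2% of the 9341 tested IDs. All 259 members had at least 1 FPKM in at least 3 libraries and entered the limma fit of log2(FPKM + 1), in which 258 were called higher at an adjusted p under 0.05, where 24.4% of all tested IDs were called higher. The rule used this contrast, so nothing is read from that count. The median log2 fold change was 2.41 among members and -0.12 over all tested IDs, and a ratio of at least 4 occurred in 6.38% of tested IDs. The uncalled member was POX_a01420, with an adjusted p of 0.050 in limma. It was listed at 0, 58.8 and 31.4 FPKM in parental replicates 1, 2 and 3, while its silenced values were 161, 184 and 311 FPKM, highest in replicate 3.

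**Figure D2:**
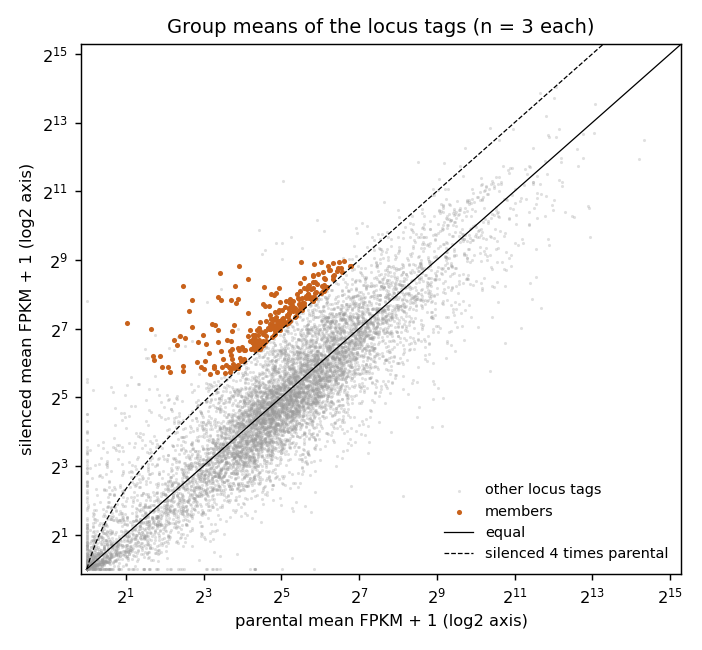
Silenced against parental mean FPKM + 1 for all 9822 locus tags (grey) and the 259 members (orange), both axes log2, n = 3 libraries per mean; the solid line marks equal means and the dashed curve a 4-fold ratio. The members form the band between 50 and 500 FPKM above the dashed curve, and 174 of them have a parental mean of 10 to 50 FPKM.

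The edges of the set were not set off from the genes beyond them. POX_a00072 and POX_g09013 lay just inside the limit on the ratio, at 4.01 and 4.02, and POX_c03574 and POX_d05625 just outside, at 3.9994 and 3.98. At the lower limit of level, POX_d05887 and POX_e07016 had silenced means of 50.3 and 50.9 FPKM, while POX_a01078 and POX_e06857, with 49.97 and 49.0 FPKM, fell outside. At the upper limit, POX_e06248 and POX_f07668 were inside at 499.6 and 491 FPKM, and POX_b02825 and POX_e06314 were outside at 515 and 516 FPKM. POX_f08229 had the lowest parental mean of all members, 1.05 FPKM, followed by POX_b02217 with 2.14 FPKM. No gene of the required level and ratio was lost for overlapping groups, and 13 lay in the left-out stretches of chromosome III. A further gene of the level was listed at 0 in all parental libraries, so that no ratio could be formed for it.

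The 12 most abundant members had silenced values between 370 and 586 FPKM and came from 6 chromosomes. POX_e06248 on chromosome V had 92.7, 123.5 and 75.9 FPKM in parental replicates 1, 2 and 3 and 575, 516 and 408 FPKM in the silenced replicates in the same order, a ratio of 5.13 and a log2 fold change of 2.36 ± 0.22 (SE). Its highest parental library was replicate 2 and its lowest library in either group was replicate 3. POX_f07668 on chromosome VI followed the same course, with 89.6, 110 and 65.3 FPKM against 565, 514 and 392 FPKM. POX_a00376 on chromosome I began lower, at 47.2, 51.2 and 35.01 FPKM, and stood at 586, 507 and 371 FPKM, a ratio of 11.0 and a log2 fold change of 3.42 ± 0.22 (SE). It had the highest value of any member in any library, in silenced replicate 1.

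POX_g08901 on chromosome VII had 65.6, 76.8 and 50.7 FPKM in the parental libraries against 518, 548 and 393 FPKM in the silenced libraries, a ratio of 7.56. POX_f08195 on chromosome VI varied less within its silenced group, with 68.3, 52.5 and 49.4 FPKM against 497, 471 and 450 FPKM, a ratio of 8.34. POX_a00981 on chromosome I had the smallest ratio of the 12, 4.14, from 122, 116 and 88.8 FPKM to 493, 466 and 396 FPKM. Across these genes, silenced replicate 1 was the highest silenced library in 10 of 12 and replicate 3 the lowest in all 12, and parental replicate 2 was the highest parental library in 9.

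The other 5 of the 12 besides POX_a01192, which is described with its neighbour, were POX_b02215, POX_f07533, POX_e07160, POX_a01818 and POX_d05470. POX_f07533 had 61.0, 131 and 131.9 FPKM in the parental libraries against 465, 474 and 407 FPKM in the silenced libraries, so that parental replicate 1 lay below the others. POX_e07160, POX_a01818 and POX_d05470 had ratios of 6.17, 5.03 and 4.69, with silenced means of 448 ± 71.3, 436 ± 63.6 and 430 ± 52.3 FPKM (SD, n = 3). POX_b02215 differed from the rest in its parental values, 0.21, 31.5 and 10.8 FPKM, which spanned a far wider range than its silenced values of 500, 448 and 399 FPKM. Its ratio of 31.7 was 81.6 without parental replicate 2 and 21.3 without parental replicate 1, so its size rests on single parental libraries.

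**Figure D3:**
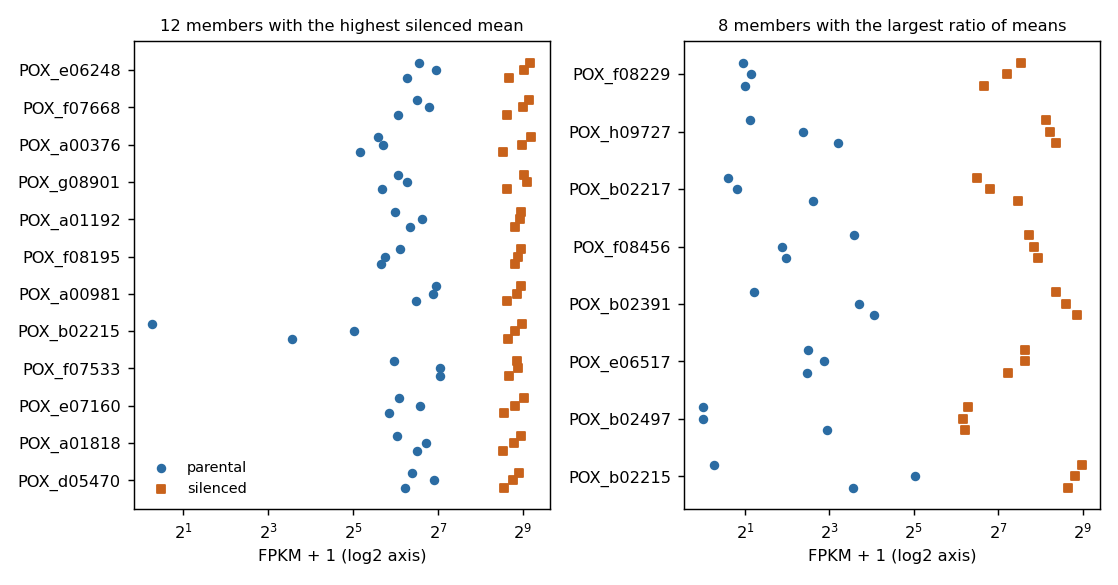
FPKM + 1 on a log2 axis in each library for the 12 members with the highest silenced mean (left) and the 8 with the largest ratio of means (right); blue circles are parental and orange squares silenced libraries, drawn from replicate 1 at the top to replicate 3 at the bottom of each row. Silenced values on the left lie between 370 and 586 FPKM, and parental values on the right spread more, as in POX_b02215 with 0.21 to 31.5 FPKM.

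The 8 largest ratios belonged to genes with parental means of 1.05 to 14.2 FPKM. POX_f08229 on chromosome VI had 0.93, 1.2 and 1.02 FPKM in parental replicates 1, 2 and 3 and 183, 146 and 99.6 FPKM in silenced replicates 1, 2 and 3. Its ratio was 136, its log2 fold change 6.09 ± 0.23 (SE), and the ratio stayed between 117 and 157 when any single library was left out. The parental values were near-equal and the silenced values were not. POX_h09727 on chromosome VIII rose 66.2-fold, from 1.17, 4.22 and 8.29 FPKM to 279, 298 and 328 FPKM. Without parental replicate 3 its ratio was 112. POX_h09726, next to it, had means of 2.28 and 13.7 FPKM, a ratio of 6.01, and was called higher too, while POX_h09728 on the other side was not, with 40.6 and 35.8 FPKM.

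POX_b02217 on chromosome II had 0.52, 0.76 and 5.15 FPKM in the parental libraries against 89.8, 111 and 176 FPKM in the silenced libraries. Its ratio of 58.6 was 196 without parental replicate 3. It lies 2 genes from POX_b02215, and POX_b02216 between them had means of 4.56 and 2.55 FPKM and was not called. POX_b02391, also on chromosome II, had 1.33, 12.1 and 15.7 FPKM against 326, 385 and 461 FPKM, a ratio of 40.2. POX_f08456 on chromosome VI went the other way among its parental libraries, with 10.9 FPKM in replicate 1 and 2.70 and 2.94 FPKM in replicates 2 and 3, and had 211, 230 and 244 FPKM in the silenced libraries. Its ratio of 41.3 was 80.9 without parental replicate 1.

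POX_e06517 on chromosome V had, like POX_f08229, parental values that lay close together. It had 4.66, 6.38 and 4.52 FPKM in the parental libraries against 198, 198 and 148 FPKM in the silenced libraries, a ratio of 35.0 that stayed between 32.8 and 39.5 without any single library. POX_b02497 on chromosome II was listed at 0 in parental replicates 1 and 2 and at 6.69 FPKM in replicate 3, against 76.3, 70.8 and 72.7 FPKM. Its ratio of 32.9 rests on that single parental value, and no ratio can be given without parental replicate 3.

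As a group, the 26 members with a ratio of at least 16 had parental means of 1.05 to 16.6 FPKM and silenced means of 57.3 to 449 FPKM. Of them 8 lay on chromosome II, which held 47 of the 258 members with a place. Of the rest, 5 lay on chromosome VI, 3 each on chromosomes I and V, and 2 or fewer on each of the others. Parental replicate 1 was the lowest parental library in 14 of the 26, and replicate 3 the highest in 15. Over all members these shares were 41.7% and 20.8%, and over the other locus tags of the level 44.0% and 26.2%. Of all members, 18 had a ratio that moved by over 1.5 times, or could not be formed, when a single library was left out; 13 of these had a ratio of at least 8. The library left out was parental replicate 1, 2 or 3 in 3, 6 and 9 of these cases, and no silenced library moved a ratio that far. In 56 of all members the ratio fell under 4, the limit of the rule, when some single library was left out. It stayed at 4 or above without each library in 203.

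Most members also shared a course across the silenced libraries. The rule used the silenced values but not their order. Silenced replicate 1 was the highest and replicate 3 the lowest of the 3 silenced libraries in 174 of 259 members (67.2%), and in 656 of the 2616 other locus tags of the same level (25.1%). The opposite order, with replicate 3 highest and replicate 1 lowest, held in 53 members (20.5%) and in 1200 other locus tags (45.9%). Next below the members, at ratios of 2 to 4, the first order held in 54.7% of 475 locus tags and the opposite order in 22.3%. Among those 174 members, the value in replicate 1 was a median of 1.30 times that in replicate 3, with quartiles at 1.23 and 1.38. Over all of these members it ran from 1.06 to 4.05 times, the highest in POX_b02481. The genes share the same 3 libraries, so these are shares of genes within those libraries, given as a description with no test. The estimated relative depths were 1.05, 1.58 and 1.34 in silenced replicates 1, 2 and 3, and whether depth bears on this order was not tested.

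After median-of-ratios scaling, which divided silenced replicates 1 and 3 by 0.905 and 1.01, both sets moved towards the order with replicate 1 highest. That order then held in 205 members (79.2%) and in 1206 other locus tags (46.1%). The opposite order held in 34 members (13.1%) and 684 other locus tags (26.1%). The members kept the larger share of the first order under both scalings, while the direction among the other genes turned with the scaling. At ratios of 2 to 4, next below the members, the first order then held in 73.5% of locus tags of the level.

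The parental libraries showed a shared course as well. Parental replicate 2 was the highest parental library in 173 members (66.8%), against 913 of the 2616 other locus tags (34.9%). It was the highest in 139 of the 174 members in which silenced replicate 1 was highest and replicate 3 lowest. Silenced replicate 1 highest and 3 lowest together with parental replicate 2 highest and 3 lowest occurred in 88 members (34.0%) and 103 other locus tags of the level (3.94%). Members therefore made up 46.1% of the 191 locus tags of this level with that joint pattern. The median ratio of the 191 was 3.65, and 1.19 over the 2875 locus tags of the level. Members were chosen for a ratio of at least 4, so their share of the 191 raises that median by the rule. Nothing about the pattern is read from it.

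**Figure D4:**
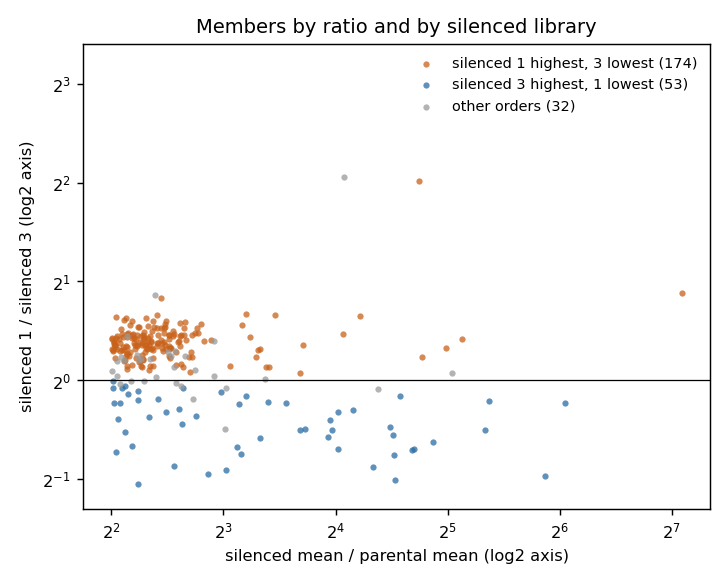
Ratio of the silenced to the parental mean (x, log2 axis) against the ratio of silenced replicate 1 to silenced replicate 3 (y, log2 axis) for the 259 members, coloured by the order of the silenced libraries. The 174 members with replicate 1 highest and 3 lowest crowd at ratios of means under 8 (155 of them), while the 53 with the opposite order have a median ratio of 8.79 and are spread up to 66.2; the largest ratio, 136, belongs to the first set.

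That course was common among members with moderate ratios and less frequent among those with large ratios; no test of the difference was made. Of the 174 members with silenced replicate 1 highest and 3 lowest, 155 (89.1%) had a ratio under 8, and the median ratio was 5.09, with quartiles at 4.54 and 5.94. Of the 53 with the opposite order, 24 (45.3%) had a ratio under 8, and the median was 8.79, with quartiles at 4.73 and 17.8. Counted the other way, the order with replicate 1 highest and 3 lowest held in 80 of 106 members with ratios of 4 to 5, 75 of 99 with ratios of 5 to 8, 12 of 28 with ratios of 8 to 16 and 7 of 26 above that. The opposite order held in 14, 10, 13 and 16 members of these classes. After median-of-ratios scaling, replicate 1 was highest and 3 lowest in 184 of the 205 members with a ratio under 8, and the opposite order held in 12. At ratios of 8 or more the orders were then nearly even, at 21 and 22 of 54 members, against 19 and 29 as deposited. Across the 259 members, the log2 ratio of means was set against the log2 ratio of silenced replicate 1 to replicate 3. Pearson r was -0.29 and Spearman rho -0.20. Silenced values enter both quantities, all points share the same silenced libraries, and the rule cut the ratios at 4. Over all locus tags of the level, the first order was more frequent at ratios of 4 to 8 (75.2%) than at 2 to 4 (54.7%). The coefficients therefore describe the members only.

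The opposite-order members also varied more among the parental libraries. Their median coefficient of variation, the SD divided by the mean, was 46.5% there, against 27.2% for the 174. Their parental level was also lower, with a median parental mean of 12.1 FPKM against 27.9 FPKM. Whether the level accounts for the spread was not tested. Parental replicate 1 was lower than each of the other parental libraries by 2-fold or more in 17 of the 53 and in 8 of the 174. Their median values were 6.36, 10.9 and 15.3 FPKM in parental replicates 1, 2 and 3 and 101, 112 and 138 FPKM in silenced replicates 1, 2 and 3. The 174 had medians of 24.3, 36.0 and 24.3 FPKM and 174, 158 and 135 FPKM in the same libraries. Replicate 1 was the lowest parental library by median in the 53, whereas replicates 1 and 3 were nearly level in the 174. Over all members, parental replicate 1 lay at least 2-fold below both others in 34 (13.1%), against 230 of the 2616 other locus tags of the level (8.79%). Its part in the members' ratios was measured only by leaving it out, as given for single genes above.

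The spread of the members within each group was set beside that of the other genes of the same silenced level, whose parental levels were higher than the members'. The median coefficient of variation over silenced libraries was 12.6% for members and 7.52% for the other locus tags of the level, and over parental libraries 29.7% and 18.0%. The extremes were far apart. POX_b03126 had 142.8, 142.9 and 143.5 FPKM in the silenced libraries (0.263%), POX_e06532 had 65.9, 65.8 and 66.3 FPKM (0.408%) and POX_b02433 had 176.1, 172.8 and 176.2 FPKM (1.10%). In all 3 of these genes parental replicate 1 was the lowest parental library and replicate 2 the highest, for example 15.3, 55.9 and 34.7 FPKM in POX_b03126.

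At the other end, POX_e06701 on chromosome V had 179, 197 and 42.8 FPKM in silenced replicates 1, 2 and 3 (60.4%), and was listed at 0 in parental replicates 1 and 2 and at 24.9 FPKM in replicate 3. Replicate 3 was thus the odd library in both groups, and the lowest silenced value was only 1.72 times the highest parental value. POX_b02481 on chromosome II had 154, 109 and 38.1 FPKM in the silenced libraries (58.3%) and 4.34, 2.10 and 4.79 FPKM in the parental libraries. POX_a01420, the uncalled member, followed with 36.9%. POX_e06701 was not called without silenced replicate 1, where its limma adjusted p was 0.053.

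**Figure D5:**
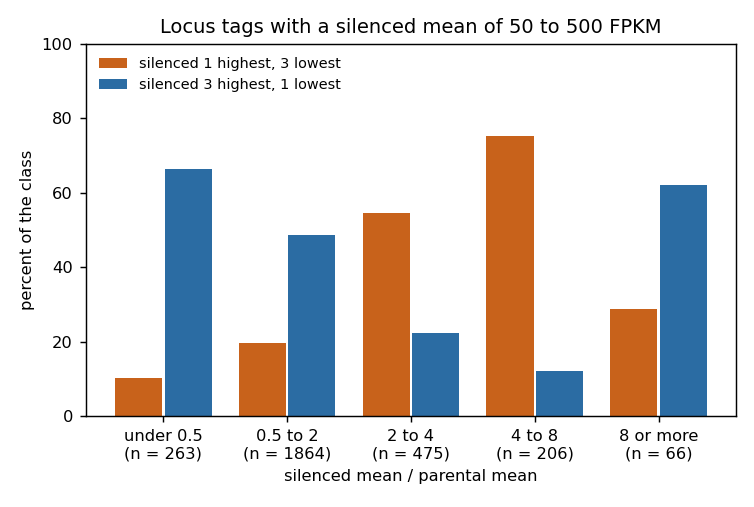
Percent of locus tags with a silenced mean of 50 to 500 FPKM in which silenced replicate 1 was highest and 3 lowest (orange) or 3 highest and 1 lowest (blue), by the ratio of the silenced to the parental mean, for parental means of at least 1 FPKM. The orange share is 75.2% at ratios of 4 to 8 and 28.8% at ratios of 8 or more; these last classes hold the members and the 13 genes of the left-out stretches. After median-of-ratios scaling the orange and blue shares at ratios of 8 or more are 31.8% and 51.5%. For the 54 members of that class alone they are then 38.9% and 40.7%.

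The members lay on every chromosome. Of 258 members found in the order of the gene table, 47 lay on chromosome II, 40 each on chromosomes I and IV, 33 on VI, 32 on III, 29 on V, 25 on VII and 12 on VIII. As a share of the tested genes this ran from 2.40% on chromosome I to 3.52% on chromosome II. Among the first or last 50 genes of a chromosome lay 14 members (5.43%), against 7.94% of tested locus tags. No run of 3 or more neighbouring members was found, and 26 members formed 13 adjacent pairs.

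The pair with the highest level was POX_a01192 and POX_a01193 on chromosome I. POX_a01192 had 62.5, 96.9 and 80.6 FPKM in the parental libraries against 497, 489 and 447 FPKM in the silenced libraries, a ratio of 5.97. POX_a01193 had 61.0, 48.0 and 37.7 FPKM against 254, 239 and 220 FPKM, a ratio of 4.86. On either side, POX_a01191 had means of 9.69 and 11.3 FPKM and was not called, and POX_a01194 was called lower, with 66.9 and 22.5 FPKM. The labels state no strand-specific step, so reads of overlapping neighbours could not be told apart.

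For the next 4 adjacent pairs by level, the flanking genes were examined too, and some of them were called lower. Among all tested locus tags that were not members, 31.0% were called lower. POX_g09040, POX_d06031 and POX_e06531, beside POX_g09039, POX_d06032 and POX_e06532, were not called. POX_d04980, beside POX_d04981, was not tested. POX_g09038 and POX_g09039 on chromosome VII had ratios of 6.79 and 4.26 at silenced means of 374 and 56.5 FPKM, and POX_g09037 beside them was called lower, from 154 to 82.5 FPKM. POX_d06032 and POX_d06033 on chromosome IV had nearly equal ratios, 5.89 and 5.96, and POX_d06034 beside them was called lower, from 4.04 to 2.56 FPKM. POX_d04981 and POX_d04982 on the same chromosome had ratios of 5.85 and 4.40, with POX_d04983 beside them called lower, from 117 to 68.8 FPKM. POX_e06532 and POX_e06534, adjacent in the gene order used, had ratios of 4.51 and 7.55, and POX_e06534 had 7.54, 75.9 and 58.5 FPKM in the parental libraries, again lowest in replicate 1. The ratio of POX_e06532 was 7.02 without parental replicate 2 and 3.45 without parental replicate 1. POX_e06535, next to POX_e06534, was called higher with a ratio of 1.53.

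In 7 of the 13 adjacent pairs both genes had the same order of silenced libraries. POX_b03428 and POX_b03429 on chromosome II, named after their values were seen, were the pair with the largest ratios, 22.4 and 25.9, and in both silenced replicate 3 was highest and replicate 1 lowest. A further 14 pairs lay 2 genes apart, among them POX_e06160 and POX_e06162 on chromosome V with ratios of 22.8 and 15.6. Of the 440 tested genes next to a member that were not members themselves, 127 (28.9%) were called higher and 109 (24.8%) lower in limma. Among all tested locus tags that were not members, 23.3% were called higher and 31.0% lower. At 2 genes' distance, 86 of 393 (21.9%) were called higher and 111 (28.2%) lower. The share of higher calls beside a member was above the share among all non-members and that at 2 genes below it, and no test of that difference was made.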

How the data were processed

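The authors deposited 1 file per library with FPKM values, per the file headers. Bcl2fastq and HISAT2 appear in the submitters' processing notes, with no version; what counted the fragments, on which build and annotation, is not given in the sources used here. Per the labels' protocols, oligo(dT) beads selected polyadenylated RNA before random-primed reverse transcription. FPKM is already divided by library size, so abundant transcripts move the values of all others. Each file lists 10899 IDs, 1077 of them without a locus tag and never members. A text prefix was removed from the locus tags of 1 library.

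The comparison was fitted on the whole table of log2(FPKM + 1) values by limma 3.58.1 (R 4.3.3), allowing a variance trend and using no block. The fit held the 9341 IDs that reached 1 FPKM in 3 or more libraries, and two-sided p-values were adjusted by the Benjamini-Hochberg method and called at 0.05. Fold changes on this scale understate those of low genes, so ratios of mean FPKM are given too. The fit was tried on simulated data in which each gene was drawn independently, with no deviation shared across a library. It therefore shows nothing about calls where many genes move together by library. Tables and figures were made with Python 3.11.15.

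Relative depth was estimated from ratios between libraries of values between 0.15 and 1.2 FPKM, within 0.03 (log2), a tolerance met by 455 of 5378 ratios. The files name no build, so the RefSeq gene table (ASM172317v3) served only for chromosome and gene order; 258 members had a place there. No protein, promoter or product table was used, so the lists and patterns planned on them could not be filled. Same-numbered libraries did not deviate together (Pearson r of 0.0014, 0.029 and 0.12 over tested IDs for replicates 1, 2 and 3), so replicate numbers were taken only as names.

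Members and lists were chosen with earlier results of these data known. The named genes are the target, the 12 highest silenced means, the 8 largest ratios, the 5 adjacent pairs with the highest silenced mean, the 3 largest and 3 smallest coefficients of variation over silenced libraries, and the genes next to each limit of the rule. Flanking genes are named with the member beside them. Any other gene was named after its values were seen.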

Additional observations from a re-analysis of the deposited data

How the results depend on the processing

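Between 258 and 259 members were called higher under the alternatives of pseudocount (0.1 or 5), filter, median-of-ratios scaling, variance trend and replicate block, and 255 to 259 without 1 library. The replicate block gave 259 calls. It left the median log2 fold change at 2.41, as it must when each group holds the same replicate numbers. That median ran from 2.23 with a pseudocount of 5 to 2.54 after scaling, and from 2.31 to 2.60 without 1 library. In all, 254 members were called in every alternative, and POX_a01157, POX_a01420, POX_e06701, POX_f07502 and POX_f07848 were not. POX_a01420 ranged from an adjusted p of 0.0029 without parental replicate 1 to 0.13 without silenced replicate 3. Scaling moved the median log2 fold change of all tested IDs from -0.12 to 0.0017.

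The number of members was 393 with a ratio of at least 3 and 153 with a ratio of at least 5, which follows from the rule. It was 302 after scaling (253 shared with the 259), 265 with group medians, and 235 to 302 when members were chosen again without 1 library. Without 1 library, 224 to 255 of the 259 were chosen again. Dropping the limit on overlap, or that on the parental mean, left 259, as the gene listed at 0 in the parental libraries has no ratio. At most 2 genes away, 54 members had another member, against 26 for the next gene. Scaling lowered the members with silenced replicate 3 highest and 1 lowest from 53 to 34; this alternative was chosen after seeing the data. Of 442 values of 34 single genes, 435 had the same sign and the same call as in the reported fit. The other 7 were changes of call and none reversed. Only the target among these genes is not a member. For members, the rule kept the sign from turning when a library was left out. Filter, variance trend and block leave the fold change as it was, so little is read from the lack of reversals. The planned sequence features were not run. Fragment numbers are unknown, so what counting alone adds to the spread is unknown.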

Other observations

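The 13 genes that met every value of the rule but lie in the left-out stretches of chromosome III, 8 in the first and 5 in the second, had ratios of 5.96 to 47.1, with a median of 26.1. In all 13, silenced replicate 3 was the highest and replicate 1 the lowest silenced library, as in 29 of the 54 members with a ratio of at least 8 and in 24 of the 205 below it. After median-of-ratios scaling this order still held in all 13, and in 22 of the 54 and 12 of the 205.

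Over the locus tags with a silenced mean of 50 to 500 FPKM and a parental mean of at least 1 FPKM, the order with silenced replicate 1 highest and 3 lowest held in 10.3% of 263 genes with a ratio under 0.5, 19.8% of 1864 with 0.5 to 2, 54.7% of 475 with 2 to 4 and 75.2% of 206 with 4 to 8. It then fell to 28.8% of 66 genes with a ratio of 8 or more, where the opposite order held in 62.1%. After median-of-ratios scaling the shares with replicate 1 highest and 3 lowest were 25.5%, 42.4%, 73.5%, 89.3% and 31.8% in these classes, and those of the opposite order 52.1%, 25.8%, 11.2%, 6.31% and 51.5%, so that the more frequent order turned at ratios of 0.5 to 2. Besides 54 members, the class of 8 or more holds genes of the left-out stretches, and these all had the opposite order. In the 54 members alone, the first and the opposite order held in 35.2% and 53.7% as deposited. After scaling they held in 38.9% and 40.7%. The silenced values enter both the ratio and the order, and all genes share the same 3 silenced libraries, so these shares are a description of these libraries.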
